A study of Homo sapiens with 3 samples.

Results

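SKOR1, TWIST2, NODAL, CASZ1, CD34, RASIP1 and STARD8 are 7 lineage genes of neurons, mesenchyme, early embryo and blood vessels that were chosen by the fold of the L3MBTL3 peaks near them, out of 19756 protein-coding genes. Every peak whose summit lay within 100 kb of a transcription start site (TSS) of a protein-coding transcript of these genes was taken: 12 of 444 L3MBTL3 peaks and 6 of 2926 RBPJ peaks. The lists come from chromatin immunoprecipitation with sequencing in MDA-MB-231, an established human breast cancer line, grown in RPMI1640 with serum and with no treatment named. One library was made with an antibody against RBPJ (RBPSUH D10A4, the protein also named CBF1) and 1 with an antibody against L3MBTL3, each with 30000000 to 40000000 aligned reads per the labels. The input DNA sample was not used here. Neither antibody has a replicate, so no difference was tested and each value describes these 2 lists. Peak lists hold no expression values, so whether these genes were transcribed in the cells was not measured.

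RBPJ binds DNA and switches Notch target genes between repression and activation, depending on whether it is joined by corepressors or by the cleaved Notch receptor. L3MBTL3 carries MBT repeats, which read methylated lysines, and is known as a partner of RBPJ that brings the histone demethylase KDM1A to Notch targets. In embryos, Notch signalling acts on several of the lineages that the 7 genes mark, among them the node, which sets the left-right axis, and the endothelium.

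The 7 regions fell into 3 kinds by their sequence, a description made after the values were seen. Near NODAL, CD34, RASIP1 and CASZ1 the L3MBTL3 peaks lay in G+C-rich sequence and had an RBPJ summit within 268 bp of theirs. The peak near SKOR1 lay at the promoter of RNU6-1, a gene for the U6 small nuclear RNA of the spliceosome. The peaks in TWIST2 and STARD8 lay in tandem repeats of C and A. The last 3 genes had no RBPJ peak within the limit, and the nearest RBPJ summits were 957 kb (SKOR1), 1369 kb (TWIST2) and 9278 kb (the strongest STARD8 peak) away.

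Inside the peaks near these genes, the high-affinity RBPJ recognition words were all CGTGGGAA, 1 of the 2 such words searched (CGTGGGAA and TGTGGGAA, both strands). They are shown with 20 bases on each side, 5′ to 3′ on the strand that carries the word (hg19), with the word in capitals, because they set NODAL, CD34 and RASIP1 apart from the other 4 genes.
NODAL, chr10:72218215-72218262, plus strand: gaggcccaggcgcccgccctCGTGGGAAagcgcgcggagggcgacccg
CD34, chr1:208042519-208042566, minus strand: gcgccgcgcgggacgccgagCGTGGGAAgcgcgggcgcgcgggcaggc
RASIP1, chr19:49242368-49242415, minus strand: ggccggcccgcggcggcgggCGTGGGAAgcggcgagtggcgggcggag
MAMSTR, the gene downstream of RASIP1, chr19:49217814-49217861, plus strand: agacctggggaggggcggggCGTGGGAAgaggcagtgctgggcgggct

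In contrast, the peaks of SKOR1, TWIST2 and STARD8 held none. The SKOR1 peak is printed whole, on the strand of RNU6-1, with the octamer word ATTTGCAT and the TATA stretch in capitals. The repeat peaks are printed with 20 flanking bases, and their capitals mark runs of at least 3 CA units.
SKOR1 peak, chr15:68132404-68132605, minus strand: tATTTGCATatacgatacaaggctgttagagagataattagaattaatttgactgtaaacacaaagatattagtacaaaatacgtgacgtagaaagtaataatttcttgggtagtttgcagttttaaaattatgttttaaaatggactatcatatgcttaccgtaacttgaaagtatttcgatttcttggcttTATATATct
TWIST2 peak, chr2:239778756-239778847, plus strand: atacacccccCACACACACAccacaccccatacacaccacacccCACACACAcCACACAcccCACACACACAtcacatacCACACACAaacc
STARD8 strongest peak, chrX:67872908-67873003, plus strand: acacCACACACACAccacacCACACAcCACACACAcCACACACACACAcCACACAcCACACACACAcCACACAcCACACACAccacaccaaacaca

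The values that chose the genes are the deposited fold enrichments of L3MBTL3, given at the summit as a ratio over the peak caller's local background. The strongest peak of each gene had a fold of 10.6 (SKOR1), 9.59 (CASZ1), 9.03 (RASIP1), 8.54 (STARD8), 8.48 (TWIST2), 8.13 (CD34) and 4.92 (NODAL). By fold these peaks ranked 6, 7, 8, 11, 12, 16 and 324 of 444, so NODAL does not share the strong L3MBTL3 peak of the others. Its peak was below the list's median fold of 5.57, as were 4 of the 12 peaks in all. In the RBPJ list, whose median fold was 5.08, the order differed: the NODAL peak had a fold of 8.88 and ranked 43 of 2926, while the other 5 peaks had folds of 4.83 to 6.29 and ranked 406 to 1783. Folds of the 2 lists were scaled separately and were not compared with each other.

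**Figure D1:**
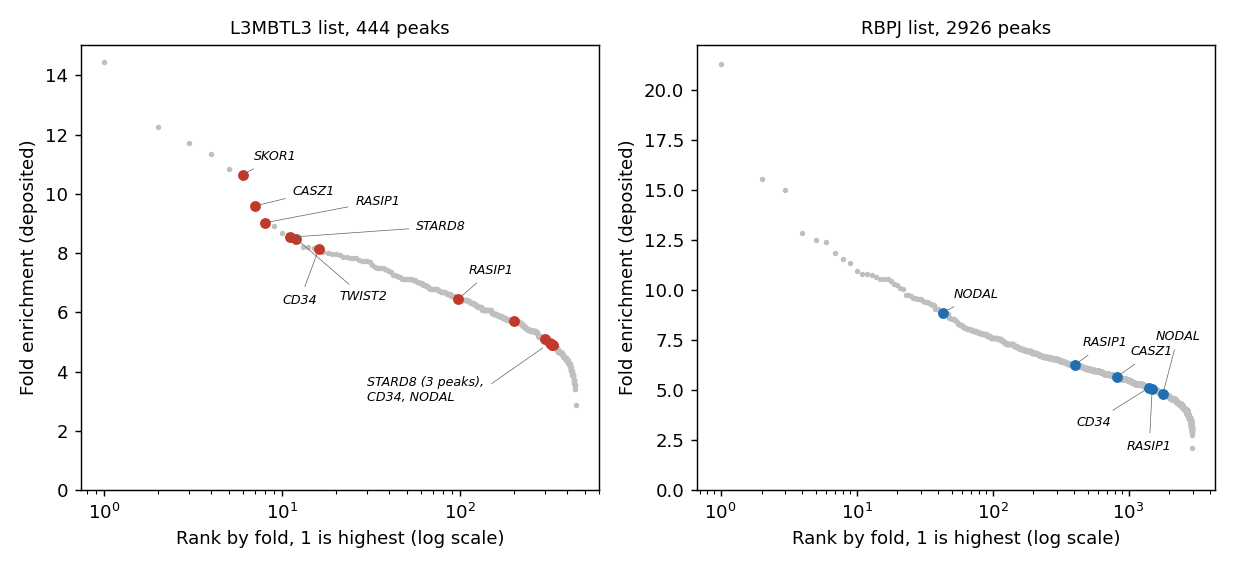
Fold enrichment (y axis, deposited) against rank by fold (x axis, log scale) for all peaks of each list (grey), with the peaks near the 7 genes in colour. Of the 12 L3MBTL3 peaks, 6 rank between 6 and 16, and the NODAL peak is low in the L3MBTL3 list and high in the RBPJ list.

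All 7 of 7 genes had an L3MBTL3 summit no farther than 100 kb from a TSS, which the choice of genes fixed, against 4.53% of all protein-coding genes. An RBPJ summit did so for 4 of 7 genes against a background of 31.0%, and summits of both proteins for 4 of 7 against 3.03%. A shared L3MBTL3 peak, one that overlapped an RBPJ peak by at least 1 bp, was near 4 of 7 genes, against 1.57%. Because the genes were picked with these lists known, nothing is read from how far these counts exceed the background. Over peaks, 5 of 12 L3MBTL3 peaks were shared (28.6% of the whole list) and 4 of 6 RBPJ peaks were (4.37% of that list). The 12 L3MBTL3 peaks formed 7 regions, 1 per gene, and neighbouring peaks in a region are not independent.

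Most of these peaks were not at starts of protein-coding transcripts of the genes that name them. A summit over 1 kb from every protein-coding TSS was found for 10 of 12 L3MBTL3 peaks, against 17.3% of that list, and for 4 of 6 RBPJ peaks, against 35.9%. These counts leave out starts of other transcripts. With those, the L3MBTL3 summits near SKOR1 (106 bp), CASZ1 (155 bp) and CD34 (96 and 186 bp) lay close to an annotated start. The named gene was the nearest protein-coding gene for 12 of 12 L3MBTL3 peaks and 4 of 6 RBPJ peaks. Since the genes were chosen by the L3MBTL3 peaks near them, nothing is read from the 12 of 12. When small RNA and long non-coding RNA genes were counted too, the named gene was the nearest for 9 of the 12. RNU6-1 lay nearer in 1 case and MIR29B2CHG in 2. The farthest L3MBTL3 summit inside the 100 kb limit was that of CASZ1 at 49.0 kb, and the farthest RBPJ summit was 1 of NODAL at 59.0 kb. Both distances are to the nearest protein-coding TSS of the gene. From the 5′ end of CASZ1, its L3MBTL3 summit was 102.6 kb away. Just outside the limit, the next RBPJ summits were 104 kb from RASIP1 (fold 3.62, nearest to DBP) and 131 kb from NODAL (fold 4.69, nearest to PRF1), and the next L3MBTL3 summit of any of the 7 genes was 765 kb from NODAL (fold 6.33, nearest to UNC5B).

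**Figure D2:**
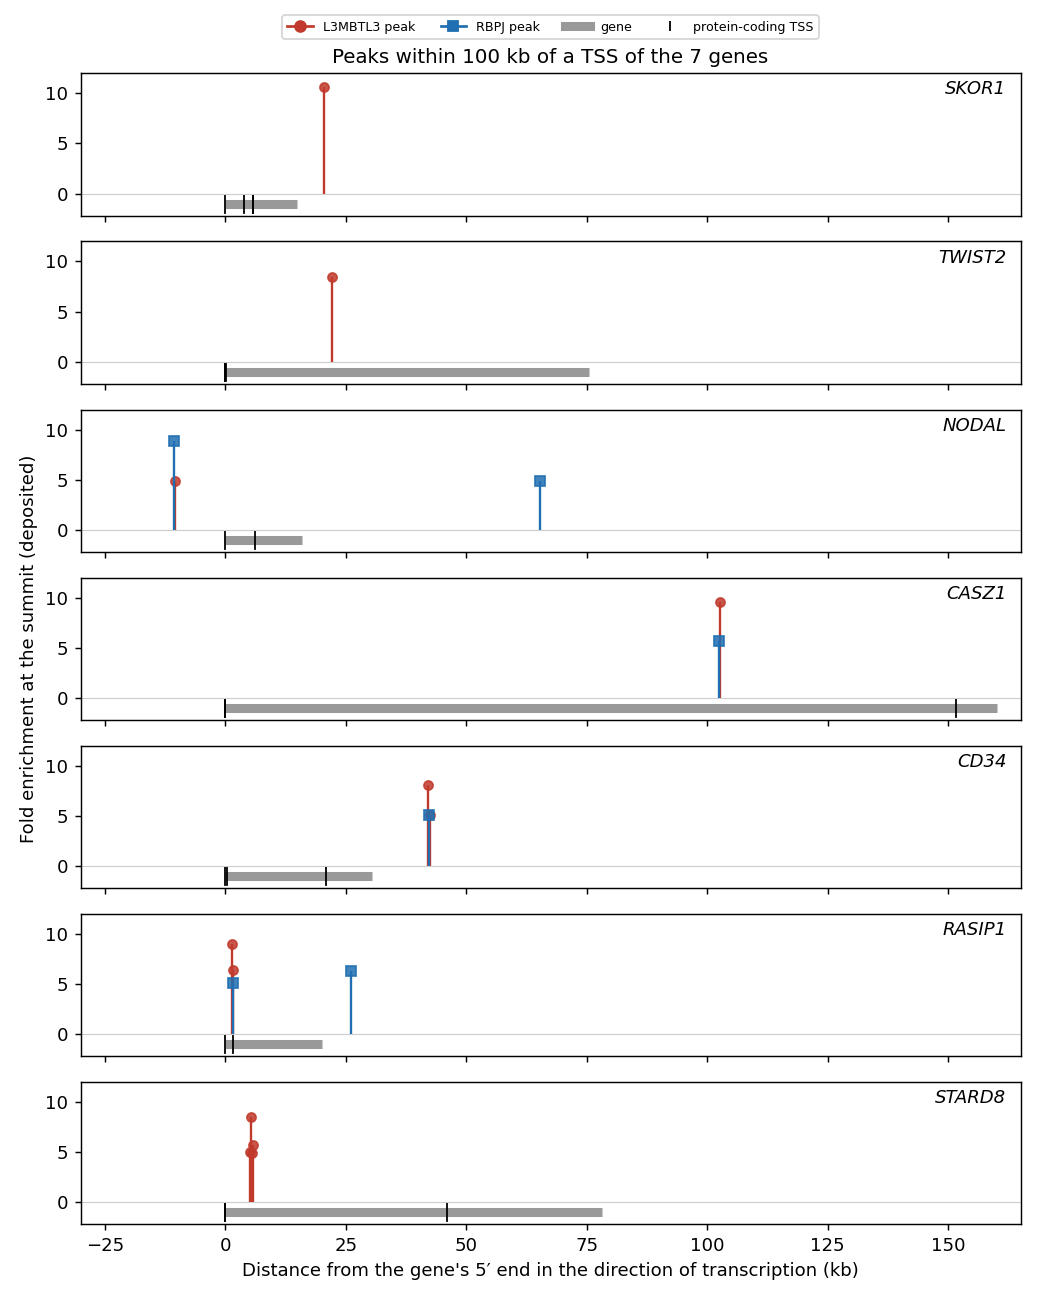
Fold enrichment (y axis) of each peak at its distance from the gene's 5′ end in the direction of transcription (x axis, kb), with the gene body in grey and protein-coding TSS as black ticks. RBPJ squares stand beside L3MBTL3 circles at NODAL, CASZ1, CD34 and RASIP1, and SKOR1, TWIST2 and STARD8 have L3MBTL3 peaks alone.

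NODAL (ENSG00000156574.10, chromosome 10, 72191692 to 72207707, minus strand) encodes a TGF-beta family ligand that patterns mesoderm, endoderm and the left-right axis. Between genes, upstream of it, lay an L3MBTL3 peak (72218066 to 72218338, fold 4.92, -log10 q 2.48) and an RBPJ peak (72218110 to 72218439, fold 8.88, -log10 q 12.7). Their summits were 10.4 and 10.6 kb upstream of the nearest NODAL TSS and 187 bp apart. The L3MBTL3 summit was near the edge of its peak, and the word CGTGGGAA at 72218235 to 72218242 was inside both peaks, 27 bp from the RBPJ summit and 161 bp from the L3MBTL3 summit. In mouse, Nodal has an upstream enhancer with RBPJ sites that Notch needs to switch the gene on in the node. Whether the human region is its counterpart was not tested.

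The stretch from 20 bases before the L3MBTL3 summit to 20 bases after the RBPJ summit (plus strand, hg19) is shown because it holds, besides the RBPJ word, a word of AP-1, the JUN and FOS dimer. Both words are in capitals, CGTGGGAA first and TGAGTCA second. The first base of TGAGTCA is the RBPJ summit itself, so the AP-1 word lay closer to that summit than the RBPJ word. Which word, if either, the peak reflects was not tested.
NODAL upstream region, chr10:72218058-72218285: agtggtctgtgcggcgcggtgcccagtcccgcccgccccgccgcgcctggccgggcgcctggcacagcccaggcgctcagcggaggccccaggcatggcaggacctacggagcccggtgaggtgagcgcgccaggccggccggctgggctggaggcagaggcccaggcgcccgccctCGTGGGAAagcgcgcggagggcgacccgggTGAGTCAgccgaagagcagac

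The AP-1 word (TGACTCA or TGAGTCA, either strand, within 100 bp of the summit) was in 11.2% of all RBPJ peaks, 2.03% of all L3MBTL3 peaks and 2.46% of windows of the same length on 78394 protein-coding TSS. The NODAL RBPJ peak was the 1 of the 6 RBPJ peaks that held it. A further RBPJ peak within the limit (72142391 to 72142481, fold 4.83, -log10 q 3.04) was 59.0 kb from the NODAL TSS but 66 bp upstream of LRRC20, and EIF4EBP2 was nearer than NODAL too, at 21.4 kb. It had no L3MBTL3 summit within 75 kb.

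CD34 (ENSG00000174059.17, chromosome 1, 208054317 to 208084747, minus strand) encodes a sialomucin of the surface of endothelial cells and blood progenitors. Past its 3′ end lay 2 L3MBTL3 peaks, the stronger at 208042431 to 208042690 (fold 8.13, -log10 q 10.4) and the weaker at 208042276 to 208042363 (fold 5.09, -log10 q 3.43). A single RBPJ peak at 208042351 to 208042690 (fold 5.12, -log10 q 5.03) overlapped both. These summits were 21.2 to 21.5 kb from the nearest CD34 TSS. They were much closer to MIR29B2CHG (minus strand), the long non-coding RNA from which microRNAs of the miR-29 family are cut: the RBPJ summit was 1 bp from a TSS of that RNA, and the L3MBTL3 summits were 96 bp upstream and 186 bp downstream of one. The region is thus a promoter of MIR29B2CHG in the annotation, and CD34 is its nearest protein-coding neighbour. The word CGTGGGAA at 208042539 to 208042546 lay 47 bp from the RBPJ summit and 69 bp from the stronger L3MBTL3 summit. A second core word, TGGGAA without the first bases, lay at 208042647 to 208042652.

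RASIP1 (ENSG00000105538.10, chromosome 19, 49223842 to 49243867, minus strand) encodes a Ras-interacting protein that endothelial cells need to open vessel lumens. Of the 7 genes it was the only one with peaks within 1 kb of its own protein-coding TSS. Its stronger L3MBTL3 peak (49242353 to 49242636, fold 9.03, -log10 q 11.4) lay in coding sequence, 198 bp upstream of the start of a shorter transcript, and did not overlap an RBPJ peak. The weaker one (49242208 to 49242289, fold 6.45, -log10 q 6.27) was 46 bp downstream of that start and overlapped an RBPJ peak (49242180 to 49242247, fold 5.08, -log10 q 3.68), with summits 24 bp apart. The word CGTGGGAA at 49242388 to 49242395 was inside the stronger L3MBTL3 peak, 82 bp from its summit, and in neither of the overlapping peaks. A second RBPJ peak (49217757 to 49217903, fold 6.29, -log10 q 6.86) was 24.5 kb from the RASIP1 TSS and in a coding exon of MAMSTR, a coactivator of MEF2 factors, whose TSS was 2.29 kb away. By protein-coding transcripts FUT2 was also nearer than RASIP1, at 18.6 kb, but a RASIP1 transcript of another type started 11030 bp away, so the distance to RASIP1 depends on which transcripts are counted. This peak held its own CGTGGGAA, 30 bp from the summit, and the nearest L3MBTL3 summit was 24.4 kb away.

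CASZ1 (ENSG00000130940.15, chromosome 1, 10696661 to 10856707, minus strand) encodes a zinc finger transcription factor of heart and vessel development. Its L3MBTL3 peak (10753885 to 10754399, fold 9.59, -log10 q 10.8) was the widest of the 12, at 515 bp, and the second by fold among the 77 L3MBTL3 peaks over 1 kb from protein-coding TSS. The RBPJ peak inside it (10754165 to 10754235, 71 bp, fold 5.66, -log10 q 3.25) had its summit 81 bp away. The L3MBTL3 summit was 49.0 kb from the nearest TSS of a protein-coding CASZ1 transcript. From the 5′ end of the gene, this summit was 102.6 kb away. It was 155 bp upstream of the start of a CASZ1 transcript of another type, so the distance depends on which transcripts are counted. There was no high-affinity RBPJ word in either peak. The only core word TGGGAA was at 10753914 to 10753919, 208 bp from the L3MBTL3 summit and outside the RBPJ peak.

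The bases between the CASZ1 summits, with 20 on each side (minus strand, hg19), are shown with every CG in capitals, 20 in 122 bases, because this region was the G+C-rich one without the RBPJ word.
CASZ1 region, chr1:10754104-10754225: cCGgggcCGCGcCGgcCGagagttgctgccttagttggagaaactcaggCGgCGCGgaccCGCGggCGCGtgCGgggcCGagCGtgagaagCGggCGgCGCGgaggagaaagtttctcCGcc

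**Figure D3:**
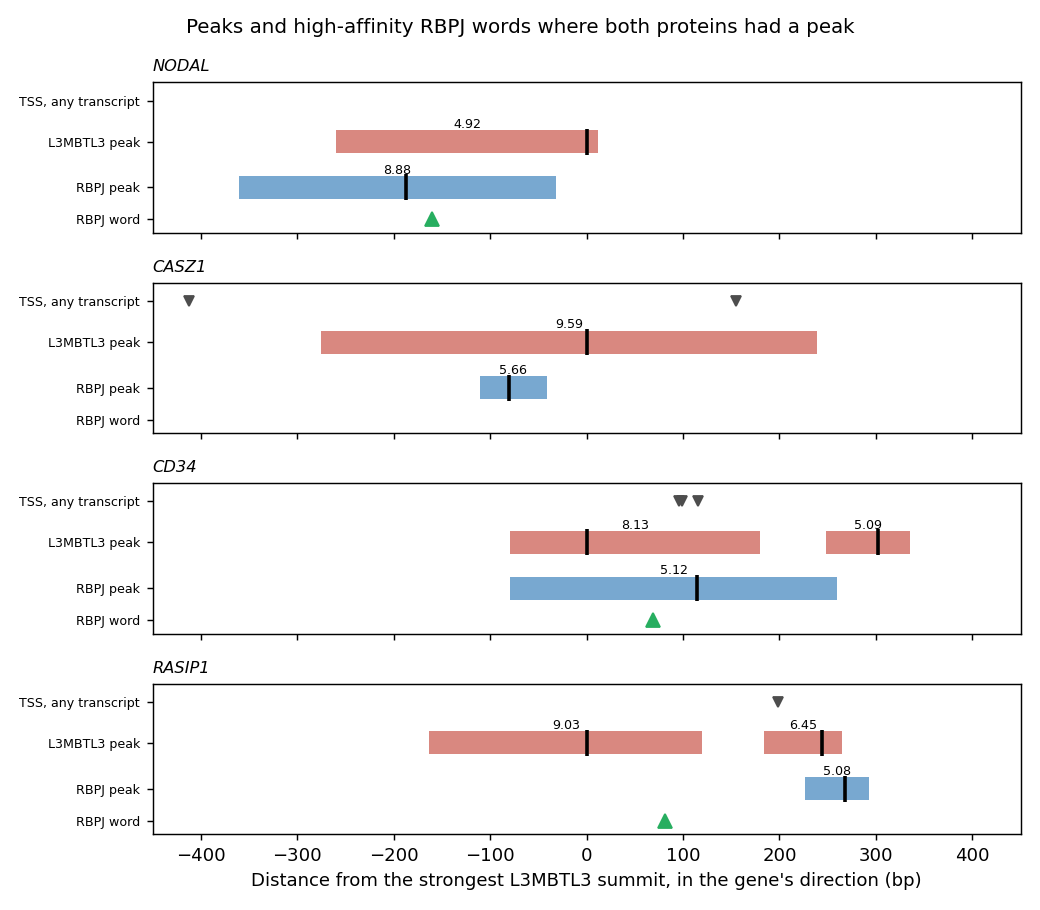
Peaks of both proteins (bars, with the deposited fold above and the summit as a black tick), high-affinity RBPJ words (green triangles) and TSS of any annotated transcript (grey triangles), by distance from the strongest L3MBTL3 summit in the direction of the named gene (x axis, bp). A word lies inside peaks at NODAL, CD34 and RASIP1, and none is seen at CASZ1.

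Within 100 bp of the summit, a high-affinity RBPJ word was present at 2 of 12 L3MBTL3 peaks (CD34 and RASIP1), against 10.1% of that list, and at 3 of 6 RBPJ peaks (NODAL, CD34 and MAMSTR), against 8.51%. It was present in 1.46% of TSS windows of this length. Anywhere inside the peak, 3 of 12 L3MBTL3 peaks held it (NODAL, CD34 and RASIP1), against 9.91% of the list. The 2 shares for L3MBTL3 rest on 2 and 3 peaks, and the NODAL word falls out of the first because its L3MBTL3 summit is 161 bp from it. At each of the 3 regions the word was outside the L3MBTL3 summit by 69 to 161 bp. The core TGGGAA within 100 bp of a summit was found at the same 2 L3MBTL3 and 3 RBPJ peaks.

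SKOR1 (ENSG00000188779.12, chromosome 15, 68112042 to 68126920, plus strand) encodes a corepressor of the SKI family that is made in neurons of the dorsal spinal cord. Its peak (68132404 to 68132605, 202 bp, fold 10.6, -log10 q 14.1) had the highest fold of the 77 L3MBTL3 peaks over 1 kb from protein-coding TSS. The summit was 14.6 kb from the nearest SKOR1 TSS, past the end of the gene, and 106 bp upstream of RNU6-1 (68132277 to 68132383, minus strand). RNA polymerase III reads U6 genes from promoters that lie wholly upstream of them, and this promoter is also the one that many plasmids for short hairpin RNAs carry. The labels do not say whether the cells carried such a plasmid, and its part in the fold of this peak was not tested. An intron of a long non-coding RNA, ENSG00000259410, spans the position on the other strand.

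The SKOR1 peak differed from the G+C-rich regions in composition. G+C made up 34.2% of the 301 bp around its summit, the lowest of all 444 L3MBTL3 peaks, whose median was 75.7%. The whole peak matched the genome at 1 place only (at least 85% identity over at least 50 bp). Among 1356 annotated genes and pseudogenes whose symbols begin with RNU6, only RNU6-1 had an L3MBTL3 summit within 500 bp of its start. None had an RBPJ summit there. A GATA word (AGATAA) and a FOX word (TGTTTAC) lay within 100 bp of the summit, words found in 1.35% and 0.676% of all L3MBTL3 peaks, most of them far richer in G+C, and in 4.60% and 1.63% of the TSS windows.

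TWIST2 (ENSG00000233608.5, chromosome 2, 239756673 to 239832230, plus strand) encodes a basic helix-loop-helix factor of mesenchyme and skin, and STARD8 (ENSG00000130052.14, chromosome X, 67867508 to 67945684, plus strand) encodes a protein with a lipid-binding START domain. The TWIST2 peak (239778776 to 239778827, 52 bp, fold 8.48, -log10 q 11.7) lay in an intron, 22.0 kb past the nearest TSS. In the first part of STARD8, also in an intron, 4 peaks 50 to 73 bp wide lay 5.13 to 5.74 kb past the TSS, between 67872593 and 67873290, with folds of 4.97, 8.54, 4.92 and 5.73 in order of position. The -log10 q of the 4 was 1.54, 8.68, 2.48 and 3.09. They were 4 of the 7 L3MBTL3 peaks on chromosome X. For width, 50 bp was the smallest in the list and the median was 86 bp.

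These 5 peaks shared their base composition. Over 201 bp around the summit, A and C together made up 90.5% of the bases at TWIST2 and 97.5 to 98.5% at STARD8, where the larger of A+C and G+T was 53.7% at the median L3MBTL3 peak. Of all L3MBTL3 peaks, 20 (4.50%, 95% Wilson interval 2.93 to 6.85, counting error only) reached 90% in this measure, a limit set after the values were seen. Of 2926 RBPJ peaks 0 did, which allows a share of up to 0.103%, and the highest value there was 75.1%. The TWIST2 peak gave 481 alignments to the genome and the STARD8 peaks 452 to 6725 (at least 85% identity over at least 50 bp). Each of the other 13 peaks gave 1. In a repeat, several alignments can fall on the same place, the peak's own included, so these are not counts of places. Reads were 50 cycles long per the labels, and how reads with several matching places were treated is not given in the sources used here. The part of repeated sequence in these 5 peaks was not tested.

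**Figure D4:**
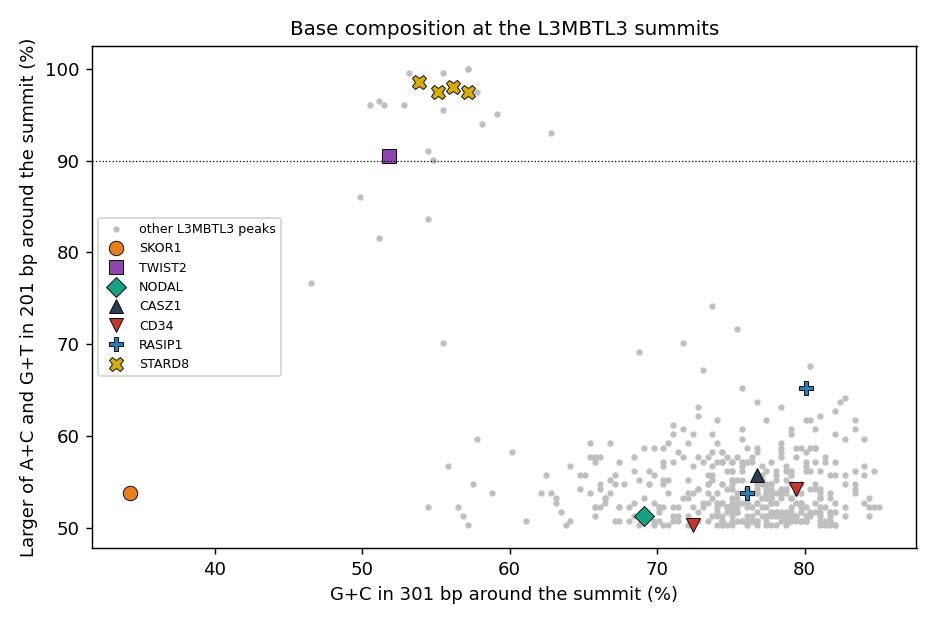
Larger of A+C and G+T in 201 bp (y axis, %) against G+C in 301 bp (x axis, %) around each L3MBTL3 summit, with the other peaks in grey and the 90% limit dotted. TWIST2 and STARD8 lie above 90%, SKOR1 has the lowest G+C of the list, and NODAL, CASZ1, CD34 and RASIP1 lie in the main cloud of peaks.

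Other genes of the same lineages and families had L3MBTL3 summits about as rarely as protein-coding genes in general, and the lists are too short to show a difference. Within 10 kb of a TSS, an L3MBTL3 summit is found for 1.58% of all protein-coding genes and an RBPJ summit for 11.3%. By this distance 2 of the 7 genes had an L3MBTL3 summit (RASIP1 and STARD8) and 1 an RBPJ summit (RASIP1). Of 39 further endothelial genes, 1 had an L3MBTL3 summit within 10 kb: EFNB2, the ephrin of arterial cells, with a fold of 5.38 and a -log10 q of 2.30, 281 bp from its TSS. Also 1 of the 39 had an RBPJ summit, NRP1, a VEGF and semaphorin receptor (fold 5.75, 75 bp from a TSS). Each of these endothelial shares is 2.56% and rests on 1 gene. Within 100 kb, 12 of the 39 endothelial genes (30.8%) had an RBPJ summit, against the background of 31.0%, and 2 (5.13%) an L3MBTL3 summit, against 4.53%, so at this distance the list lay at the background for both proteins.

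Among 13 partners of RASIP1 in small GTPase signalling and cell junctions and relatives of STARD8, 0 had an L3MBTL3 summit within 10 kb and 3 had an RBPJ summit. The 3 were CCM2, a scaffold of endothelial junctions (2 peaks, folds 7.02 and 4.13, 192 and 105 bp from a TSS), RADIL, a Rap effector that binds RASIP1 (fold 6.17, 114 bp), and ARHGAP29, a partner of RASIP1 (fold 5.33, 70 bp). Of 18 genes of Nodal signalling, 0 had an L3MBTL3 summit and 3 an RBPJ summit: ACVR2B, a receptor (folds 6.88 and 4.33), FOXH1, a nuclear effector whose peak was 3 bp from a TSS of PPP1R16A and 2.14 kb from its own (fold 5.24), and DAND5, an inhibitor (fold 4.93, 306 bp). Of 5 members of the SKI, SKOR and DACH family, 0 and 1 had such summits, the 1 being SKIL (RBPJ fold 5.08). None of 14 TWIST-related and mesenchymal factors, and neither of the 2 other sialomucins of the CD34 family, had a summit of either protein within 10 kb. No count was tested.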

How the data were processed

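ChIP-seq peak lists of 1 RBPJ and 1 L3MBTL3 library were used. Per the labels, Trimmomatic removed adaptors from reads of 50 cycles and BWA 0.7.15 placed them on hg19. The submitters' processing notes name MACS2, without a version, as the peak caller, and neither its cutoff nor its control is given in the sources used here. The deposited values are a fold at each summit (the ratio to local background), the -log10 p and -log10 q, and a score of 10 times the -log10 q. Read counts behind a peak are not in the lists, so the error of a fold is unknown.

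Coordinates were made 1-based. TSS came from GENCODE 44 lifted to GRCh37 (19756 protein-coding genes) and sequence from GRCh37, the assembly of hg19, read with pysam 0.24.0. Words were sought on both strands, and the shares of peaks with a word count those within 100 bp of summits unless stated otherwise. The RBPJ sites listed for the 7 genes were sought over each whole peak and 100 bp on each side of it. Alignments of the peaks to the genome were counted with blastn 2.17.0, without merging those that overlap. Word search, overlap and distance code was tested on simulated data. The genes, lists and limits were chosen with earlier results of these data known. All 7 genes and all their peaks are named, with every nearer protein-coding gene. From other gene lists, members with an L3MBTL3 summit within 10 kb are named, and the member with the highest RBPJ fold; the further list members, non-coding genes and genes beyond 100 kb were named after their values were seen. PECAM1, listed with the endothelial genes, was not matched.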

Additional observations from a re-analysis of the deposited data

How the results depend on the processing

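The 7 counts of peaks and genes were recomputed in 58 alternatives, and 41 stayed within 1.5 times the reported count. Of 6 RBPJ peaks, 12 L3MBTL3 peaks, 5 shared L3MBTL3 peaks and 4 genes with both proteins, a distance of 10 kb left 1, 6, 1 and 1. It left 6 L3MBTL3 peaks with the named gene nearest, in place of 12, and 1 L3MBTL3 and 0 RBPJ peaks with a high-affinity word, in place of 2 and 3. A -log10 q of at least 5 left 3 RBPJ peaks, 7 L3MBTL3 peaks (7 with the named gene nearest), 1 shared peak and 2 genes with both. A fold of at least the list's median left 3 shared peaks. Measured from 1 TSS per gene, its 5′ end, the CASZ1 peaks lay beyond 100 kb. That left 5 RBPJ peaks, 11 L3MBTL3 peaks (11 with the named gene nearest), 4 shared peaks and 3 genes with both. L3MBTL3 peaks with a high-affinity word numbered 0 in windows of 50 bp and 5 in windows of 250 bp on each side of the summit, following the distance of the words from the summits. Leaving out peaks with at least 90% A+C or G+T, chosen after seeing the data, left 7 L3MBTL3 peaks, 7 of them with the named gene nearest, and 5 genes, without TWIST2 and STARD8. No paired analysis was possible because each antibody had 1 library. Without read counts per peak, the depth behind a single fold is unknown.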

Other observations

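Peaks in A+C-rich or G+T-rich repeats were not limited to TWIST2 and STARD8. The 20 L3MBTL3 peaks of this kind formed 14 stretches, nearest to 14 protein-coding genes. All 20 were over 1 kb from protein-coding TSS, where they made up 26.0% of 77 L3MBTL3 peaks, and 0 of the 20 were shared with RBPJ. Their median fold was 4.79 and that of the remaining L3MBTL3 peaks 5.61, with median widths of 65.5 and 86.5 bp and median -log10 q of 3.90 and 3.66. The strongest peaks of STARD8 (fold 8.54) and TWIST2 (8.48) were the highest of the 20, followed by a peak near CLASP1 (6.43). A group of 3 such peaks (folds 3.68 to 4.48) lay 80.4 to 81.2 kb from a TSS of NOS3, the endothelial nitric oxide synthase, and nearer to KCNH2, 45.2 to 46.0 kb away. G+C at these 20 peaks was 50.5 to 62.8%.

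Genes named here lie outside the naming rule and were chosen after their values were seen. The 2 of 39 endothelial genes with an L3MBTL3 summit within 100 kb were EFNB2 and NOS3, a share of 5.13% against 4.53% of all protein-coding genes, and 30.8% had an RBPJ summit against 31.0%. ZEB2, a mesenchymal repressor, had an L3MBTL3 summit 64.0 kb away (fold 6.43) that was 63 bp from a TSS of GTDC1. RHOA had 2 at 57.8 and 58.0 kb (folds 7.01 and 6.56), both at DAG1, and DAND5 had 1 at 26.5 kb (fold 6.19) that was 513 bp from NFIX.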
